A study of Homo sapiens with 22 samples.

Results

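Tumour cells of H3122 xenografts that had persisted through 6 weeks of alectinib were compared with those taken after 2 weeks, in NSG hosts. H3122 is an ALK-positive human non-small cell lung cancer line, alectinib is an inhibitor of the ALK kinase, and NSG mice lack T, B and natural killer cells and accept human grafts. The 8 samples compared, of 22 in all, were chosen by their labels alone: 4 NSG tumours at 6 weeks and 4 NSG tumours at 2 weeks, read in the human genes of the bulk RNA sequencing. The other groups were 3 hHGF-NSG tumours at 6 weeks and 4 at 2 weeks on the same drug, and therapy-naive tumours, 3 from hHGF-NSG and 4 from NSG hosts. By the series title hHGF-NSG mice carry a humanized HGF, which activates MET. How it is expressed is not in the labels. All groups hold the same cell line, so the tumours are 1 genetic model. The labels give no drug dose and no hour of collection, and they do not say that each sample came from its own animal, so p-values measure only the spread between these samples.

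Non-small cell lung cancers with an EML4-ALK fusion depend on the signal of the ALK kinase, and cells that survive its inhibition without regrowing are called persisters. Airway epithelium makes multiciliated cells through a fixed sequence: the regulators MCIDAS and MYB switch on FOXJ1 and RFX factors, which in turn switch on the structural genes of motile cilia. The circadian clock is a feedback loop in which CLOCK and ARNTL activate the PER, CRY, NR1D and DBP families, whose products act back on the loop. These programmes, the cell cycle, and the secretory and signalling genes of lung epithelium were followed from 2 to 6 weeks.

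The 8 libraries held 16029 genes that could be tested (12022 of them protein coding), out of 58735 listed human genes. A gene was tested where its FPKM, the read level scaled to gene length and library size, was 1 or more in at least 3 of the 22 samples. Recovered human reads were 11934313 to 16329855 per library at 6 weeks and 11852085 to 16364175 at 2 weeks. Mouse reads made up 19.2 ± 2.51% of all reads at 6 weeks (SD, n = 3, as mouse reads of replicate 4 were not analysed here) and 15.7 ± 3.41% at 2 weeks (n = 4). The difference of 3.43 percentage points had p = 0.2286 in an exact two-sided permutation test. With 3 against 4 samples this test cannot go under 0.05, so it decides nothing about the mouse share. The part of the mouse share in the results was not tested. Mitochondrial genes took 7.65 to 9.07% of human reads at 6 weeks and 3.86 to 8.64% at 2 weeks, and the part of this in the results was not tested either. In a principal component analysis of the 8 libraries the first component held 36.3% of the variance and separated the times, and the second (20.4%) set 6 weeks replicate 3 apart at 39.7, with the other 7 between -17.1 and 14.4. The library labelled NSG naive replicate 1 had 0.32 FPKM of human HGF, against at most 0.0061 in the other naive NSG libraries, and it enters here only through naive means, the filter and the shared estimate of spread. Leaving it out moved the naive mean of a named gene by at most 0.20 (HEY1) in log2(FPKM + 1).

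The tissue label was checked against markers. All 8 lung adenocarcinoma markers were tested, and their summed level was 1046 to 1232 FPKM at 6 weeks and 1086 to 1293 at 2 weeks, with 1 of them, MUC1, lower at 6 weeks (log2 change -0.48, SE 0.12, adjusted p = 0.00562). Human genes that mark other cells summed to far less. The 8 fibroblast markers came to 7.1 to 16.2 FPKM at 6 weeks and 10.7 to 14.8 at 2 weeks, and the 6 endothelial markers to 7.73 to 20 FPKM at 6 weeks and 7.35 to 11.7 at 2 weeks. The 8 leukocyte markers came to 0.878 to 1.71 FPKM at 6 weeks and 1.38 to 3.05 at 2 weeks, and the 6 skeletal muscle markers to 19.5 to 29.1 FPKM at 6 weeks and 29.2 to 46.2 at 2 weeks. Most of the muscle sum was myoglobin (MB), an oxygen carrier, at 20.3, 19.5, 28.8 and 18.8 FPKM at 6 weeks, against 45.8, 35.7, 38.7 and 28.7 at 2 weeks (log2 change -0.74, SE 0.13, adjusted p = 0.000268), while the muscle myosin MYH1 had 0 reads in all 8 libraries. The fat cell genes ADIPOQ, LEP and FABP4 and the red cell genes HBA2 and ALAS2 also had 0 reads in all 8, where counting error alone allows up to 3 reads per library. The part of these marker levels in the results was not tested.

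The drug target and the MET receptor were looked at before the wider comparison. ALK (ENSG00000171094, chromosome 2, 29192774 to 29921566, minus strand), the kinase that alectinib blocks, had 3.06, 2.63, 2.29 and 2.19 FPKM in the 6-week tumours, against 2.32, 3.27, 2.9 and 2.69 in the 2-week tumours. Gene positions throughout are on GRCh38. EML4, the usual fusion partner of ALK in lung cancer, had 21.3, 23.1, 18.2 and 22.4 FPKM at 6 weeks, against 17.9, 17.3, 19.9 and 20.3 at 2 weeks. MET, the receptor of HGF, had 11.4, 10.9, 11.5 and 15 FPKM at 6 weeks, against 11.2, 9.51, 11.1 and 9.99 at 2 weeks. The samples of the 2 times overlapped for each of these genes, and none of them was called, with adjusted p = 0.584 for ALK, 0.284 for EML4 and 0.137 for MET in limma. The log2 changes, always 6 weeks minus 2 weeks on the log2(FPKM + 1) scale, were -0.10 (SE 0.11), 0.16 (SE 0.10) and 0.20 (SE 0.09). HGF was too low to test in NSG tumours, at 0 to 0.0468 FPKM at 6 weeks and 0 to 0.006 at 2 weeks.

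At 6 weeks, genes of motile cilia, of mitosis and of mucin secretion were lower than at 2 weeks, and genes of the circadian clock were higher. In all, 3264 of 16029 genes were called at an adjusted p under 0.05 in limma (20.4%). Of these 1352 rose (8.43% of genes tested) and 1912 fell (11.9%). A change of 2-fold or more was less common, with 72 genes that rose and 271 that fell by that much. The samples of the 2 times did not overlap for 3592 genes (22.4%), of which 2681 were called. The median log2 change of all genes tested was -0.01 and the median absolute change 0.20. For genes at low FPKM the added 1 makes these log2 changes smaller than the change in FPKM.

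**Figure D1:**
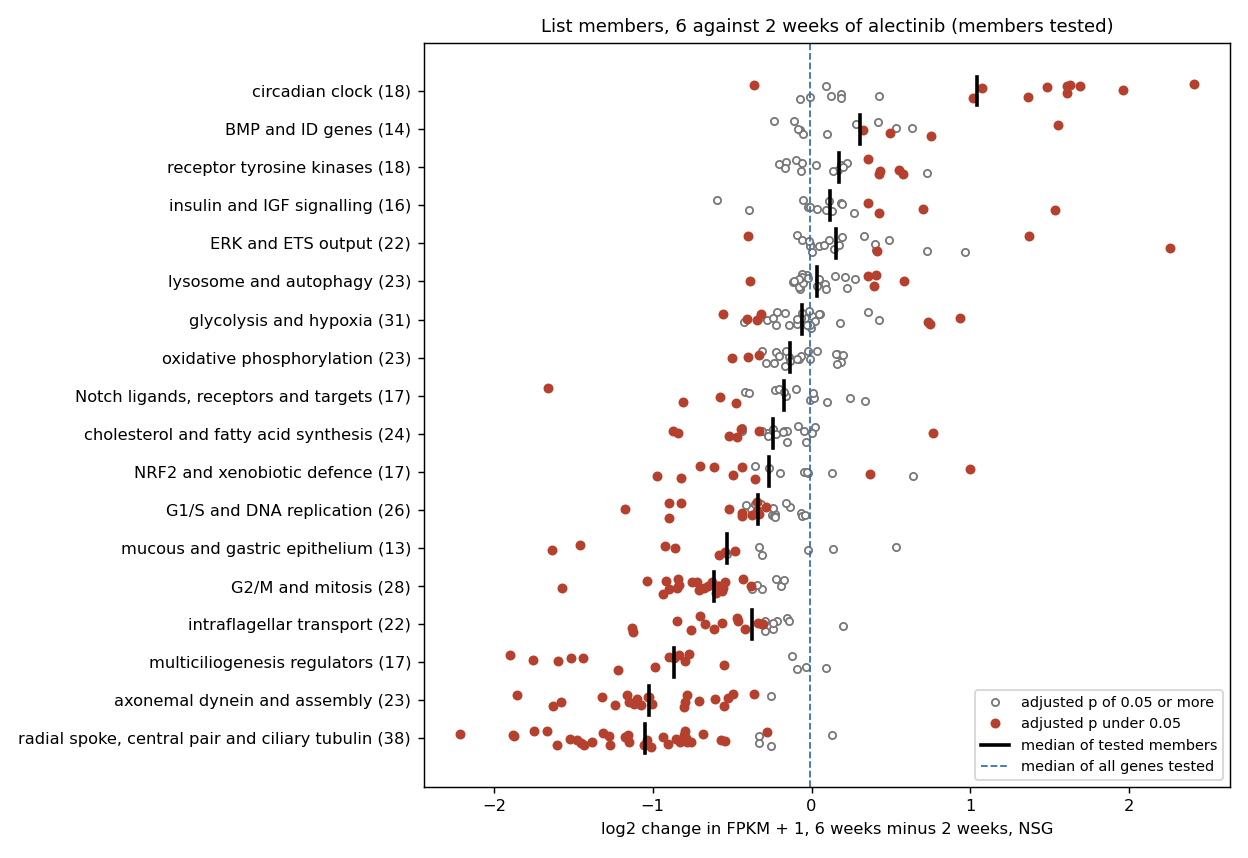
Log2 change (6 weeks minus 2 weeks, NSG) of each tested member of 18 gene lists; filled points passed an adjusted p of 0.05 and open points did not, black bars are list medians and the dashed line is the median of all genes tested. The circadian clock list has a median of 1.04, and the cilia lists at the bottom have medians of -0.38 to -1.05.

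Genes of motile cilia made up the largest group of falls among the lists. Of 100 tested genes on 4 cilia lists, 83 fell and 0 rose, where 11.9% of all genes tested fell and 8.43% rose. Their median log2 change was -0.83, against -0.01 over all genes tested. Of these falls, 42 were at least 2-fold. Tested members ranged from -2.21 (WDR38) to 0.20 (IFT80). The mean log2(FPKM + 1) over the 100 genes was 3.05, 2.98, 3.20 and 2.96 in the 6-week libraries, against 4.05, 3.94, 3.86 and 3.84 in the 2-week libraries. The highest 6-week library stood below the lowest 2-week library, and the 4 naive NSG libraries were at 1.40 to 1.42. In bulk tissue, fewer cells of a type and less RNA per cell cannot be told apart.

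Among regulators of multiciliated cells 13 of 17 tested fell and 0 rose (against 11.9% and 8.43% of all genes tested), with a median of -0.87. FOXJ1 (ENSG00000129654, chromosome 17, 76136333 to 76141299, minus strand), the transcription factor that switches on motile cilia genes, had 119, 92.6, 156 and 101 FPKM at 6 weeks, against 389, 558, 378 and 421 at 2 weeks. Every 6-week tumour was below every 2-week tumour (log2 change -1.90, SE 0.17, adjusted p = 1.23e-07). FOXN4, a forkhead factor of multiciliated cell precursors in frogs, averaged 6.28 ± 0.827 FPKM at 6 weeks and 23.5 ± 1.38 at 2 weeks (SD, n = 4 each; log2 change -1.76, SE 0.12, adjusted p = 8.17e-09). CDC20B, a gene of cells that are amplifying centrioles, averaged 31.8 ± 5.49 FPKM at 6 weeks and 97.4 ± 6.83 at 2 weeks (log2 change -1.60, SE 0.13, adjusted p = 6.36e-08). CCNO, a cyclin-like protein needed for centriole amplification, had 125, 123, 108 and 95.2 FPKM at 6 weeks, against 352, 361, 288 and 296 at 2 weeks (log2 change -1.52, SE 0.16, adjusted p = 1.14e-06). Samples of the 2 times did not overlap for any of these genes. MCIDAS averaged 18.6 FPKM at 6 weeks and 32.1 at 2 weeks (log2 change -0.77, SE 0.12, adjusted p = 0.000126), MYB fell by 0.87 and TP73, a p53 family factor of ciliated cells, by 0.98. RFX2 and RFX3, which bind promoters of ciliary genes, fell by 1.22 and 0.55. The general partners E2F4 (log2 change -0.03, adjusted p = 0.84), E2F5, TFDP1 and EMSY did not pass the test.

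Of axonemal dyneins, the motors of the cilium, and the factors that assemble them, 22 of 23 fell and 0 rose (median -1.02). Over all genes tested 11.9% fell and 8.43% rose. CCDC151, a docking protein for outer dynein arms, had 3.53, 2.56, 4.02 and 2.11 FPKM at 6 weeks, against 15.9, 13.7, 12.1 and 12.1 at 2 weeks. The 2-week tumours were all higher (log2 change -1.85, SE 0.12, adjusted p = 8.17e-09). ZMYND10 and DNAAF3, which assemble dynein arms in the cytoplasm, averaged 17.4 ± 2.86 and 7.14 ± 1.22 FPKM at 6 weeks and 55.6 ± 6.13 and 23.5 ± 4.85 at 2 weeks (log2 changes -1.63 and -1.58). The intermediate chain DNAI1 fell by 1.32 and the heavy chain DNAH5 by 0.79, and DNAAF4 was the member that did not pass (-0.26, adjusted p = 0.34).

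Of radial spoke, central pair and other axonemal genes, 34 of 38 fell and 0 rose (median -1.05), against 11.9% and 8.43% of all genes tested. WDR38 (ENSG00000136918, chromosome 9, 124853417 to 124857890, plus strand), a WD-repeat protein, had 8.02, 5.9, 7.06 and 5.88 FPKM at 6 weeks, against 41.7, 39.1, 27.8 and 31.2 at 2 weeks. This was the largest fall on the 4 lists, without overlap (log2 change -2.21, SE 0.13, adjusted p = 1.33e-09). LRRC46, a leucine-rich repeat protein, averaged 14.6 ± 3.62 FPKM at 6 weeks and 55.4 ± 2.72 at 2 weeks (log2 change -1.88, SE 0.12, adjusted p = 8.17e-09). LRRC10B, also a leucine-rich repeat protein, averaged 17.6 ± 4.26 FPKM at 6 weeks and 66.8 ± 14 at 2 weeks (log2 change -1.87, SE 0.18, adjusted p = 5.75e-07). TEKT4, a tektin of the axoneme, had 3.48, 3.69, 4.14 and 2.52 FPKM at 6 weeks, against 16.6, 16, 11.4 and 11.9 at 2 weeks (log2 change -1.75, SE 0.13, adjusted p = 2.32e-08). The spoke genes ROPN1L and RSPH1 fell by 1.67 and 1.38, the tubulin-binding TPPP3 by 1.45 and the central pair gene HYDIN by 0.80. TUBB4B, a beta-tubulin of cilia that other cells also use, lost the most FPKM of the genes named in this group, with 255 ± 30.8 FPKM at 6 weeks and 438 ± 31.6 at 2 weeks (log2 change -0.78, SE 0.12, adjusted p = 7.41e-05).

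Intraflagellar transport, the machinery that carries cargo along every kind of cilium, moved less. Of 22 tested members 14 fell and 0 rose (against 11.9% and 8.43% of all genes tested), with a median of -0.38. IFT140, of the retrograde complex, averaged 10.1 ± 1.44 FPKM at 6 weeks and 23.4 ± 3.15 at 2 weeks (log2 change -1.13, SE 0.14, adjusted p = 8.17e-06). IFT57 and IFT27, of the anterograde complex, fell by 1.12 and 0.85. IFT88 (-0.14, adjusted p = 0.355) and the kinesin KIF3A (-0.29, adjusted p = 0.104) did not pass. No single left-out NSG library took the count of falls on any of the 4 cilia lists outside 12 to 16 for transport, 13 for regulators, 21 to 22 for dyneins and 33 to 35 for the axonemal list.

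At 6 weeks these genes remained above their naive level. Mean FPKM in naive, 2-week and 6-week NSG tumours was 19.3, 436 and 117 for FOXJ1, 12.8, 324 and 113 for CCNO, and 0.337, 97.4 and 31.8 for CDC20B. For WDR38 it was 0.0455, 35 and 6.72 FPKM. The log2 change of 6 weeks against naive was 2.52 for FOXJ1 (adjusted p = 6.45e-11), 3.08 for CCNO (adjusted p = 1.55e-12) and 2.88 for WDR38 (adjusted p = 1.4e-13). The comparisons with naive tumours share their libraries with the comparison of 6 against 2 weeks. TUBB4B was the exception among the genes named above, with naive, 2-week and 6-week means of 433, 438 and 255 FPKM.

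**Figure D2:**
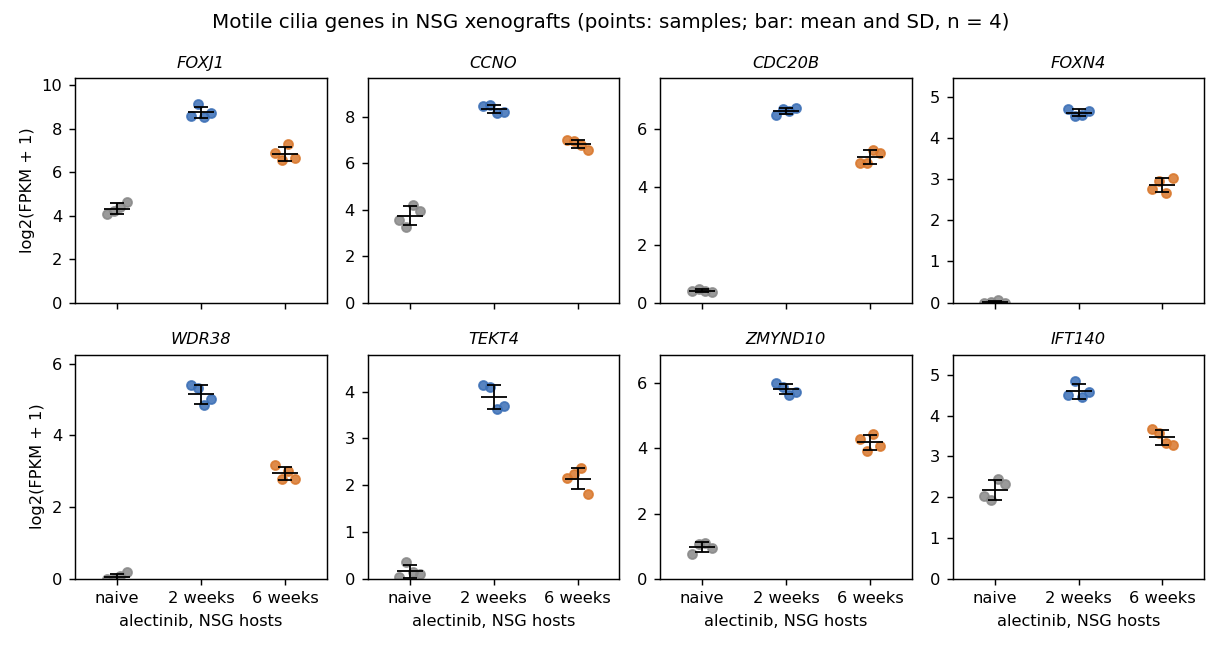
Level of 8 cilia genes, as log2(FPKM + 1), in naive, 2-week and 6-week NSG tumours; points are samples and black bars the mean and SD (n = 4). In each panel the 6-week samples lie below every 2-week sample and above every naive sample, as for FOXJ1 with means of 19.3, 436 and 117 FPKM.

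Promoters are shown for 3 of the axonemal and dynein genes above, because RFX factors bind a core of GTTGCC in ciliary promoters. These 3 were picked as the named genes with the largest falls among those whose promoter held the core. The presence of the core in them is thus no result. RefSeq windows of 300 bases on GRCh38.p14, from 250 bases before to 50 after a gene's start, were searched on both strands. Of the 83 cilia genes that fell, 62 had a window, and 31 of their 76 windows (40.8%) held GTTGCC or its reverse complement, against 12.2% of all 35116 windows. The E-box CACGTG was in 5.26% of these windows, against 7.26% of all. Windows of cilia genes that did not fall were not counted, so the share with the core is not shown to go with the fall. Each sequence is given 5′ to 3′ along the gene, with the core in capitals on either strand. WDR38 is at chr9:124853210-124853509, plus strand, LRRC10B at chr11:61508499-61508798, plus strand and CCDC151 at chr19:11435733-11436032, minus strand.
WDR38: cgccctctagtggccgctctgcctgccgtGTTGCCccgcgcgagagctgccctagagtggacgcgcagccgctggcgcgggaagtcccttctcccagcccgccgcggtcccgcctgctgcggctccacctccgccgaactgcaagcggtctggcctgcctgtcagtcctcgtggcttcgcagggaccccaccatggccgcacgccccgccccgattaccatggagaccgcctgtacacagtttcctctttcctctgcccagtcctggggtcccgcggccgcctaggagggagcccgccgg
LRRC10B: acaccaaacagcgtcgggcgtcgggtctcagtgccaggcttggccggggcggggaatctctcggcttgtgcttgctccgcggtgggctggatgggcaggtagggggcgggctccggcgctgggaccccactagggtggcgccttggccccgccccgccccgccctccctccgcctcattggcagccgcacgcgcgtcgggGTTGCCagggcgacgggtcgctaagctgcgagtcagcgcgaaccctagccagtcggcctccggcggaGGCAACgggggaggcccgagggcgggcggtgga
CCDC151: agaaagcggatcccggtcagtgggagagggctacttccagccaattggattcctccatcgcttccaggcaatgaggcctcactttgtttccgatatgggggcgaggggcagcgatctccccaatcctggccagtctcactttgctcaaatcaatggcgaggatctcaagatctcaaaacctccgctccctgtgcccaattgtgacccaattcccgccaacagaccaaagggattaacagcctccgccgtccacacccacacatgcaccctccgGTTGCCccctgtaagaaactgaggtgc
A match of letters is a description of the window and no evidence that a factor sits there. FOXJ1, the gene with the largest fall among regulators, had no window in the table.

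Circadian clock genes were the clearest group of rises. Of 18 tested, 10 rose (against 8.43% of all genes tested) and 1 fell, with a median log2 change of 1.04. All 10 rises were at least 2-fold, and the counts were 10 and 1 with any 1 of the 8 libraries left out. The mean log2(FPKM + 1) over the 18 genes was 3.19, 3.12, 3.08 and 3.18 at 6 weeks, against 2.18, 2.32, 2.16 and 2.28 at 2 weeks, without overlap. The naive NSG libraries were at 2.33 to 2.53, nearer to the 2-week libraries. As the labels give no hour of collection, time on drug and time of day cannot be told apart for these genes. The part of the hour in the results was not tested.

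NR1D1 (ENSG00000126368, chromosome 17, 40092787 to 40100725, minus strand), a nuclear receptor that represses ARNTL, had 50.5, 42.6, 35.7 and 32 FPKM at 6 weeks, against 5.94, 7.8, 6.27 and 6.74 at 2 weeks. This was the largest rise named, and the lowest 6-week tumour was far above the highest 2-week tumour (log2 change 2.41, SE 0.18, adjusted p = 2.43e-08). Its relative NR1D2 had 15.5, 16.4, 19.2 and 17.7 FPKM at 6 weeks, against 5.6, 5.57, 4.53 and 4.26 at 2 weeks (log2 change 1.61, SE 0.14, adjusted p = 1.81e-07). PER1 and PER3, which close the loop by repressing CLOCK and ARNTL, averaged 9.09 ± 1.89 and 5.05 ± 0.3 FPKM at 6 weeks and 2.31 ± 0.636 and 0.963 ± 0.204 at 2 weeks (log2 changes 1.61 and 1.63). The repressors CRY2 and CIART rose by 1.02 and 1.48.

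The output factors moved with them. TEF (ENSG00000167074, chromosome 22, 41367333 to 41399326, plus strand), a factor that carries the rhythm to its target genes, had 11.7, 9.4, 10.8 and 8.76 FPKM at 6 weeks, against 2.54, 2.8, 1.23 and 1.21 at 2 weeks, without overlap (log2 change 1.96, SE 0.17, adjusted p = 8.06e-08). Its relative DBP had 11, 10.8, 10 and 6.99 FPKM at 6 weeks, against 2.74, 3.05, 1.8 and 1.71 at 2 weeks (log2 change 1.69, SE 0.20, adjusted p = 3.81e-06). BHLHE40, a repressor that shares binding sites with the clock, averaged 10.4 ± 3.28 FPKM at 6 weeks and 3.34 ± 0.732 at 2 weeks (log2 change 1.36, SE 0.17, adjusted p = 1.16e-05).

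The activator side went the other way or did not pass. ARNTL, the partner of CLOCK, was the member that fell, with 4.62, 4.6, 4.83 and 4.52 FPKM at 6 weeks, against 5.45, 5.93, 6.85 and 6.96 at 2 weeks. Its samples did not overlap (log2 change -0.36, SE 0.07, adjusted p = 0.0017). CLOCK (0.19, adjusted p = 0.176), PER2 (0.12, adjusted p = 0.772) and CRY1 (-0.01, adjusted p = 0.955) did not pass. Mean FPKM in naive, 2-week and 6-week NSG tumours was 9.5, 6.69 and 40.2 for NR1D1, 1.3, 0.963 and 5.05 for PER3, and 1.39, 2.33 and 9.71 for DBP. BHLHE40 differed, with 75, 3.34 and 10.4 FPKM, so its 6-week level was far below the naive level.

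**Figure D3:**
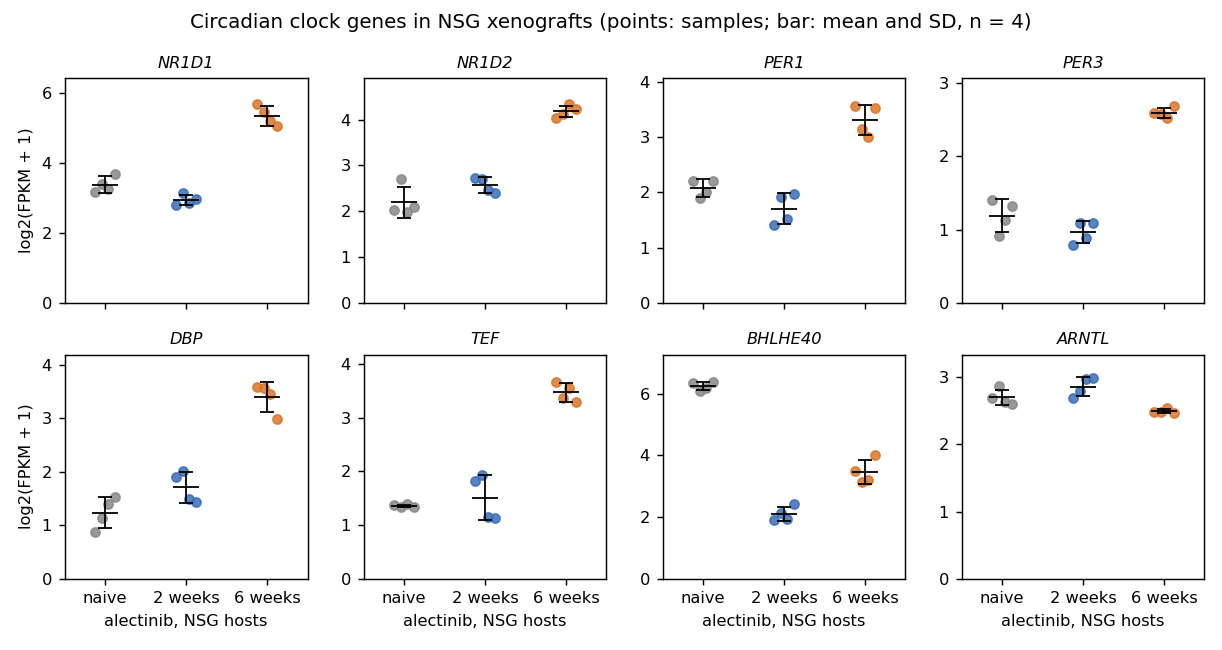
Level of 8 circadian clock genes, as log2(FPKM + 1), in naive, 2-week and 6-week NSG tumours; points are samples and black bars the mean and SD (n = 4). For 7 genes every 6-week sample is above every 2-week sample (NR1D1 means 6.69 and 40.2 FPKM at 2 and 6 weeks), and for ARNTL every 6-week sample is below.

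Promoters of 3 clock genes are shown because CLOCK and ARNTL bind the E-box CACGTG. These 3 were picked as the named genes with the largest rises among those whose promoter held the E-box. The presence of the E-box in them is thus no result. Of the 10 genes that rose, 9 had a RefSeq window, and 6 of their 13 windows (46.2%), in 5 genes, held the E-box, against 7.26% of all windows. GTTGCC was in 0 of the 13. Windows of clock genes that did not rise were not counted, so the share with the E-box is not shown to go with the rise. The E-box reads the same on both strands and is in capitals. TEF is at chr22:41367205-41367504, plus strand, PER1 at chr17:8152355-8152654, minus strand and NR1D2 at chr3:23945871-23946170, plus strand.
TEF: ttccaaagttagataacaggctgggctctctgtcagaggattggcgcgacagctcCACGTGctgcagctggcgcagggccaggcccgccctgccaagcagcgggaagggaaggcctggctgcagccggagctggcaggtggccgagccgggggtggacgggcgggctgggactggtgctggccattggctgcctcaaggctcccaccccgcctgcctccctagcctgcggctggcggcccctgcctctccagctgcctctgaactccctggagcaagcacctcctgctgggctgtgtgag
PER1: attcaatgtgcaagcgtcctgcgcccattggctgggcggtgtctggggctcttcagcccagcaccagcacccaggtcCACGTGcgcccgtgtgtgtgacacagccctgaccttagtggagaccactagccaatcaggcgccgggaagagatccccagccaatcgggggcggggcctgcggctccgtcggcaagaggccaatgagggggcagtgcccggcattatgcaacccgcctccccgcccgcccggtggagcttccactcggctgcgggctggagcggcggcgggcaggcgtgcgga
NR1D2: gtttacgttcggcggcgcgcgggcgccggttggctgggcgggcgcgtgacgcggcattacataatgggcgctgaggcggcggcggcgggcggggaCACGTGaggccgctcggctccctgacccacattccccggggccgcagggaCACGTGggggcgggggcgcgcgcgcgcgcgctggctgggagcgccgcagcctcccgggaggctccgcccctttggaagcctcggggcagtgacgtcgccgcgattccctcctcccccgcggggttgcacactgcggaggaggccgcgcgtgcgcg
NR1D1 and DBP held no CACGTG in their windows, which says only that these letters are not there.

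Cell cycle genes, already low at 2 weeks, were lower still at 6 weeks. Of 54 tested, 34 fell and 0 rose (against 11.9% and 8.43% of all genes tested), with a median of -0.43. The mitotic list moved most, with 22 of 28 that fell (median -0.61), and the list of replication genes had 12 of 26 (median -0.34). All 54 had a negative log2 change. The mean log2(FPKM + 1) over the 28 mitotic genes was 1.39, 1.46, 1.46 and 1.61 at 6 weeks, against 2.19, 2.08, 2.16 and 2.04 at 2 weeks, and naive NSG libraries were at 4.01 to 4.21. The 26 replication genes were at 2.16, 2.23, 2.25 and 2.29 at 6 weeks, against 2.64, 2.61, 2.63 and 2.59 at 2 weeks, and at 4.29 to 4.46 in naive libraries. With 1 library left out, 8 to 14 replication genes and 21 to 23 mitotic genes fell.

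CDC20 (ENSG00000117399, chromosome 1, 43358955 to 43363203, plus strand), the activator of the anaphase-promoting complex, had 4.21, 5.08, 3.98 and 5.86 FPKM at 6 weeks, against 15.4, 17, 15.7 and 16.2 at 2 weeks. No 6-week tumour reached the 2-week range (log2 change -1.57, SE 0.15, adjusted p = 4.21e-07). PTTG1, the securin that inhibits separase until anaphase, averaged 3.17 ± 0.333 FPKM at 6 weeks and 7.74 ± 2.27 at 2 weeks (log2 change -1.03, SE 0.15, adjusted p = 6.51e-05). BUB1, a checkpoint kinase of the kinetochore, averaged 1.68 ± 0.274 FPKM at 6 weeks and 4.11 ± 0.496 at 2 weeks (log2 change -0.94, SE 0.10, adjusted p = 9.82e-07). The topoisomerase TOP2A and cyclin CCNB1 fell by 0.92 and 0.75. The proliferation marker MKI67 was low at either time (0.91 FPKM at 6 weeks and 1.19 at 2 weeks) and did not pass (-0.22, adjusted p = 0.243).

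Among replication genes MYBL2, a transcription factor of the MYB family, had 0.707, 1.25, 1.29 and 1.34 FPKM at 6 weeks, against 4.58, 3.48, 3.09 and 4.24 at 2 weeks, without overlap (log2 change -1.17, SE 0.16, adjusted p = 1.91e-05). TK1, thymidine kinase, averaged 6 ± 0.74 FPKM at 6 weeks and 12.1 ± 1.46 at 2 weeks (log2 change -0.90, SE 0.14, adjusted p = 0.000114), and UHRF1, which maintains DNA methylation, 0.95 ± 0.213 FPKM at 6 weeks and 2.62 ± 0.311 at 2 weeks (log2 change -0.90, SE 0.14, adjusted p = 0.000101). RRM2 (-0.41, adjusted p = 0.102) did not pass. Mean FPKM in naive, 2-week and 6-week tumours was 48.9, 16.1 and 4.78 for CDC20, 61.5, 3.85 and 1.15 for MYBL2 and 151, 12.1 and 6 for TK1. Of 13 tested CDK inhibitors, D cyclins and RB family genes 2 fell and 1 rose (against 11.9% and 8.43% of all genes tested), with a median of 0.08. The falls were in inhibitors of cyclin-dependent kinases 4 and 6. CDKN2D averaged 5.6 ± 1.04 FPKM at 6 weeks and 13.4 ± 0.873 at 2 weeks (log2 change -1.14, SE 0.15, adjusted p = 1.85e-05), and CDKN2C 1.16 ± 0.295 FPKM at 6 weeks and 3.53 ± 0.617 at 2 weeks (log2 change -1.07, SE 0.16, adjusted p = 7.12e-05). The inhibitors CDKN1A, CDKN1B and CDKN1C did not pass (-0.24, 0.20 and -0.47), and CDKN2A and CDKN2B were too low to test. The rise, in the atypical cyclin CCNG2 (0.35, adjusted p = 0.0276), lost its call without 2 weeks replicate 1 or 2 or 6 weeks replicate 2 or 3. CCNA1, a cyclin with a role in meiosis, was among the 15 largest falls, at 5.92 ± 1.62 FPKM at 6 weeks and 22 ± 2.15 at 2 weeks (log2 change -1.76, SE 0.14, adjusted p = 3.33e-08).

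A mitotic promoter is shown because many genes of this phase hold the cell cycle homology region TTTGAA. CDC20 was picked as the named mitotic gene with the largest fall among those whose promoter held these letters. Of the 22 mitotic genes that fell, 16 had a RefSeq window, and 12 of their 22 windows (54.5%) held TTTGAA or its reverse complement, against 15.2% of all windows and 0 of 13 windows of the replication genes that fell. Windows of mitotic genes that did not fall were not counted, so the share with TTTGAA is not shown to go with the fall. CDC20 is at chr1:43358731-43359030, plus strand, with the letters in capitals.
CDC20: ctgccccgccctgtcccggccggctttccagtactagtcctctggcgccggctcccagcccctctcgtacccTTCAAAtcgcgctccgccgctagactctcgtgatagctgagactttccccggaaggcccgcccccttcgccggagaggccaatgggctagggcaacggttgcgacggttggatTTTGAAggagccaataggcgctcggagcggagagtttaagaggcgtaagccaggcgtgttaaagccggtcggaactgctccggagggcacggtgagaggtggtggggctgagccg

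Mucin genes fell. Of 13 tested genes of mucous and gastric epithelium 7 fell and 0 rose (median -0.53), against 11.9% and 8.43% of all genes tested. However, 1 rose without 2 weeks replicate 4 or 6 weeks replicate 3. MUC5AC (ENSG00000215182, chromosome 11, 1157953 to 1201138, plus strand), a gel-forming mucin of airway goblet cells, had 2.97, 3.23, 3.65 and 4.36 FPKM at 6 weeks, against 13.8, 13.6, 12.1 and 12.6 at 2 weeks. Its neighbour MUC5B, the other gel-forming airway mucin, had 2.24, 2.21, 2.32 and 3.2 FPKM at 6 weeks, against 10.8, 8.69, 7.12 and 8.02 at 2 weeks. The times did not overlap for either gene (log2 change -1.64, SE 0.23, adjusted p = 4.72e-05 for MUC5AC; log2 change -1.46, SE 0.27, adjusted p = 0.000597 for MUC5B). MUC13, a membrane mucin, fell by 0.92 and MUC2, a gut mucin, by 0.58 from low levels. TFF3, a small secreted partner of mucins, lost the most FPKM of this group, with 186, 204, 214 and 178 at 6 weeks, against 464, 366, 349 and 267 at 2 weeks (log2 change -0.86, SE 0.17, adjusted p = 0.00143). Mean FPKM in naive, 2-week and 6-week tumours was 18.2, 13.1 and 3.55 for MUC5AC, and 209.7, 8.65 and 2.49 for MUC5B. A membrane mucin went the other way: MUC21 averaged 5.27 ± 0.708 FPKM at 6 weeks and 1.33 ± 0.502 at 2 weeks (log2 change 1.45, SE 0.16, adjusted p = 1.57e-06).

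Other secretory genes of the airway were mixed. Of 16 tested, 3 rose and 4 fell, where 8.43% of all genes tested rose and 11.9% fell. BPIFA1, a secreted defence protein of the upper airway, had 4.64, 4.5, 5.24 and 3.83 FPKM at 6 weeks, against 24, 15.5, 18.5 and 13.2 at 2 weeks, without overlap (log2 change -1.73, SE 0.18, adjusted p = 8.92e-07). BPIFB1, of the same family, averaged 15.7 ± 4.18 FPKM at 6 weeks and 29.2 ± 0.773 at 2 weeks (log2 change -0.88, SE 0.23, adjusted p = 0.0108), and WFDC2, a protease inhibitor of airway fluid, 50.6 ± 5.9 FPKM at 6 weeks and 85.3 ± 7.85 at 2 weeks (log2 change -0.74, SE 0.18, adjusted p = 0.00528). SCGB1A1, the club cell secretoglobin, did not pass (28.6 FPKM at 6 weeks and 40.6 at 2 weeks, log2 change -0.51, adjusted p = 0.123). Among alveolar genes 2 of 8 type 1 genes rose: CLIC5, a chloride channel family protein, averaged 2.6 ± 0.116 FPKM at 6 weeks and 1.05 ± 0.123 at 2 weeks (log2 change 0.81, SE 0.09, adjusted p = 1.45e-06), and HOPX, a homeodomain protein, 6.88 ± 1.08 FPKM at 6 weeks and 3.59 ± 0.533 at 2 weeks (log2 change 0.78, SE 0.13, adjusted p = 0.000321). Of 11 type 2 genes 2 rose and 1 fell. Of these CTSH, a protease that processes surfactant protein, kept its call without any 1 library (log2 change 0.36, SE 0.08, adjusted p = 0.00283). SLC34A2, a phosphate transporter, had an adjusted p of 0.0156 and lost the call, at 0.0587, without 2 weeks replicate 1. The fall was in SFTPA2, a surfactant protein with a near-identical paralog that could share its reads, and it lost the call without 2 weeks replicate 1 or 6 weeks replicate 2 or 4.

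Immediate early genes split the 6-week tumours. EGR1 (ENSG00000120738, chromosome 5, 138465490 to 138469315, plus strand), a zinc finger factor induced by ERK signalling, had 55.8, 12.8, 8.17 and 77.8 FPKM at 6 weeks, against 3.44, 4.79, 5.56 and 5.44 at 2 weeks. FOS, a subunit of AP-1, had 49.4, 11, 11.1 and 53.5 FPKM at 6 weeks, against 7.96, 9.55, 9.03 and 8.42 at 2 weeks. Replicates 1 and 4 were high for either gene and replicates 2 and 3 close to the 2-week range, although the samples of the times did not overlap. EGR1 was called (log2 change 2.26, SE 0.52, adjusted p = 0.00417) and kept the call without any 1 library (adjusted p up to 0.0203). FOS was called with all libraries (log2 change 1.37, SE 0.43, adjusted p = 0.0282) and lost the call without 2 weeks replicate 1, 2 or 4 or 6 weeks replicate 1 or 4, with adjusted p up to 0.117. Mean FPKM in naive, 2-week and 6-week NSG tumours was 50.2, 4.81 and 38.6 for EGR1 and 108, 8.74 and 31.2 for FOS. ATF3, a stress-induced factor, averaged 15.3 FPKM at 6 weeks and 4.12 at 2 weeks and did not pass (1.17, adjusted p = 0.103).

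**Figure D4:**
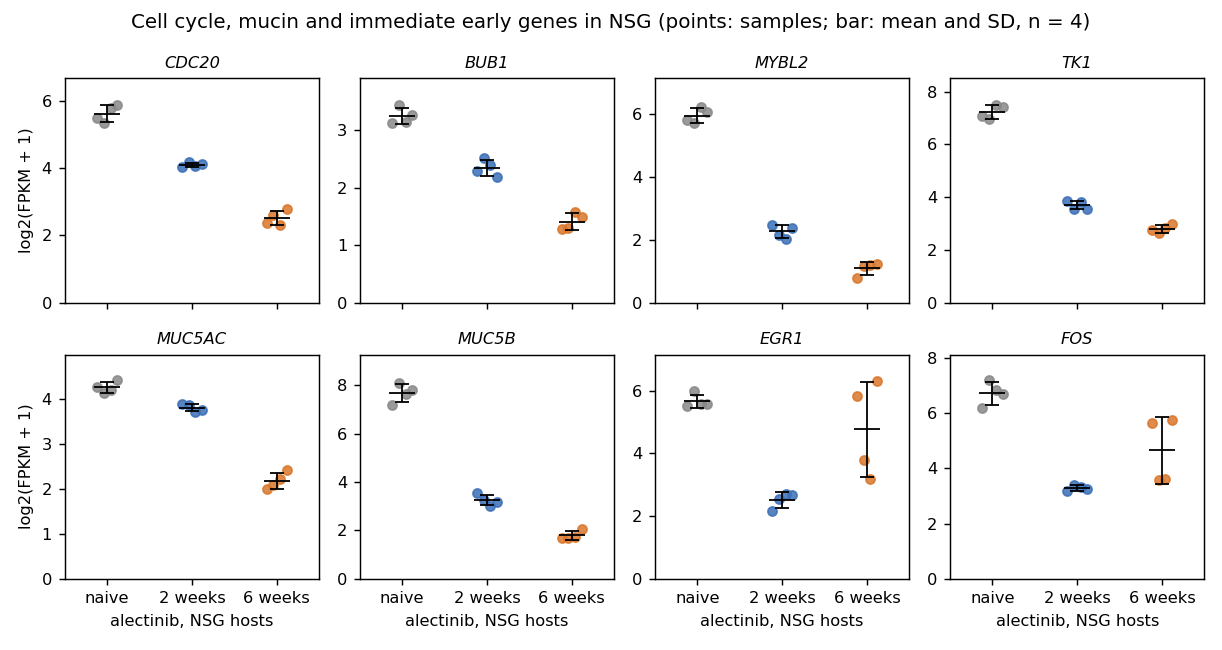
Level of cell cycle genes (CDC20, BUB1, MYBL2, TK1), mucins (MUC5AC, MUC5B) and immediate early genes (EGR1, FOS), as log2(FPKM + 1), in naive, 2-week and 6-week NSG tumours; points are samples and black bars the mean and SD (n = 4). The cell cycle and mucin genes step down at each time, as in MYBL2 with means of 61.5, 3.85 and 1.15 FPKM, while EGR1 and FOS spread widely at 6 weeks.

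Apart from EGR1 and FOS the outputs of ERK signalling moved little. Of 22 tested, 3 rose and 1 fell (against 8.43% and 11.9% of all genes tested), with a median of 0.15. The count of rises was 1 without 2 weeks replicate 1, 2 without 2 weeks replicate 2 or 4 or 6 weeks replicate 1 or 4, and 4 without 6 weeks replicate 2 or 3. The fall, in PHLDA1 (-0.40, adjusted p = 0.0258), lost its call without 2 weeks replicate 1 or 3 or 6 weeks replicate 1 or 2. The feedback phosphatase DUSP6 (0.49, adjusted p = 0.157) did not pass. Of 18 receptor tyrosine kinases tested, 5 rose and 0 fell, where 8.43% of all genes tested rose and 11.9% fell. Only 3 kinases rose without 2 weeks replicate 2 or 6 weeks replicate 1, 2 or 4. KIT, the receptor of stem cell factor, averaged 10.8 ± 0.953 FPKM at 6 weeks and 6.95 ± 0.792 at 2 weeks (log2 change 0.57, SE 0.12, adjusted p = 0.00137), and FGFR2, a fibroblast growth factor receptor, 1.71 ± 0.287 FPKM at 6 weeks and 0.998 ± 0.1 at 2 weeks (log2 change 0.43, SE 0.10, adjusted p = 0.00417). The ligand TGFA, which binds EGFR, averaged 32.4 ± 2.6 FPKM at 6 weeks and 22.8 ± 2.09 at 2 weeks (log2 change 0.49, SE 0.12, adjusted p = 0.00755).

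Some insulin, IGF and BMP genes rose, where 8.43% of all genes tested rose and 11.9% fell. Of 16 insulin and IGF genes 4 rose and 0 fell, with a median of 0.12, and 1 fell without 2 weeks replicate 1 or 4 or 6 weeks replicate 3. IGFBP4 (ENSG00000141753, chromosome 17, 40443461 to 40457731, plus strand), a secreted protein that binds IGF, had 27.4, 24.1, 28.9 and 23.7 FPKM at 6 weeks, against 8.15, 11.2, 6.22 and 8.37 at 2 weeks, without overlap (log2 change 1.53, SE 0.24, adjusted p = 0.000146). PIK3IP1, an inhibitor of PI3 kinase, averaged 30.4 ± 5.35 FPKM at 6 weeks and 18.1 ± 2.24 at 2 weeks (log2 change 0.70, SE 0.17, adjusted p = 0.00568), and the insulin receptor INSR 5.34 ± 0.587 FPKM at 6 weeks and 3.71 ± 0.217 at 2 weeks (log2 change 0.42, SE 0.10, adjusted p = 0.00452). Of 14 BMP genes 4 rose and 0 fell (median 0.30). ATOH8, a transcription factor that responds to BMP, had 7.64, 5.93, 6 and 4.98 FPKM at 6 weeks, against 1.43, 1.79, 1.22 and 1.23 at 2 weeks. Its samples did not overlap (log2 change 1.55, SE 0.15, adjusted p = 5.62e-07). The receptor BMPR2 averaged 10.3 ± 0.533 FPKM at 6 weeks and 7.02 ± 0.737 at 2 weeks (log2 change 0.50, SE 0.09, adjusted p = 0.000644). INHBB, a subunit of activin and inhibin, had 24.3, 22.3, 26.1 and 17.5 FPKM at 6 weeks, against 8.62, 9.93, 8.52 and 6.85 at 2 weeks (log2 change 1.31, SE 0.22, adjusted p = 0.000237).

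Some Notch genes fell, where 11.9% of all genes tested did, and WNT genes moved both ways. Of 17 Notch genes 4 fell and 0 rose, although 1 rose without 2 weeks replicate 4 or 6 weeks replicate 3. HES6 (ENSG00000144485, chromosome 2, 238238267 to 238240662, minus strand), a factor that counters HES1 and is expressed in differentiating cells, had 63.8, 63, 76.6 and 64.4 FPKM at 6 weeks, against 256, 273, 179 and 164 at 2 weeks. The lowest 2-week tumour was above all of the 6-week tumours (log2 change -1.66, SE 0.21, adjusted p = 1.18e-05). The Notch target HEY1 averaged 4.36 ± 0.772 FPKM at 6 weeks and 8.38 ± 1.11 at 2 weeks (log2 change -0.81, SE 0.19, adjusted p = 0.00473), and the ligand JAG1 5.3 ± 0.0868 FPKM at 6 weeks and 8.44 ± 1.08 at 2 weeks (log2 change -0.58, SE 0.10, adjusted p = 0.000403). Of 11 WNT genes 4 rose and 2 fell. TCF7, a factor that acts with beta-catenin, averaged 1.54 ± 0.323 FPKM at 6 weeks and 4.01 ± 0.634 at 2 weeks (log2 change -0.98, SE 0.12, adjusted p = 5.9e-06), while WNT5A, a ligand, rose by 0.52 and the receptor LGR4 by 0.43. The count of WNT falls was 1 without 2 weeks replicate 2, 3 or 4 or 6 weeks replicate 2, 3 or 4, as SP5 lost its call. Of 13 genes of the YAP pathway 2 rose and 1 fell, with 1 rise without 2 weeks replicate 1 or 6 weeks replicate 1 or 4 and 2 falls without 2 weeks replicate 4. The gene that fell was CTGF (now CCN2), a matrix protein and YAP target, with 30.2, 19.9, 35.8 and 29.1 FPKM at 6 weeks, against 60, 68.4, 54.9 and 60.9 at 2 weeks (log2 change -1.09, SE 0.17, adjusted p = 0.000139).

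Metabolic and defence genes showed smaller shifts, where 8.43% of all genes tested rose and 11.9% fell. Of 17 genes of the NRF2 programme, which answers oxidative stress, 7 fell and 2 rose. NQO1, a quinone reductase, had 9.59, 9.28, 12.8 and 9.37 FPKM at 6 weeks, against 20.9, 18.7, 18.4 and 17.3 at 2 weeks (log2 change -0.82, SE 0.12, adjusted p = 3.5e-05). Aldehyde dehydrogenases moved in opposite directions: ALDH1A1 averaged 1.25 ± 0.352 FPKM at 6 weeks and 3.4 ± 0.532 at 2 weeks (log2 change -0.97, SE 0.18, adjusted p = 0.000804), and ALDH1A3 5.74 ± 0.77 FPKM at 6 weeks and 2.37 ± 0.336 at 2 weeks (log2 change 1.00, SE 0.14, adjusted p = 3.06e-05). Of 24 genes of cholesterol and fatty acid synthesis 6 fell and 1 rose, and 4 to 7 fell with 1 library left out. SQLE, squalene epoxidase, averaged 14.5 ± 2.5 FPKM at 6 weeks and 27.1 ± 1.08 at 2 weeks (log2 change -0.87, SE 0.12, adjusted p = 2.72e-05), and FASN, fatty acid synthase, 9.47 ± 1.98 FPKM at 6 weeks and 17.6 ± 2.77 at 2 weeks (log2 change -0.84, SE 0.19, adjusted p = 0.00333), while the sterol desaturase SC5D rose (0.77, adjusted p = 0.000511).

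Of 31 glycolysis and hypoxia genes 3 rose and 4 fell (2 without 2 weeks replicate 2), with a median of -0.06. These counts were close to the shares over all genes tested, of which 8.43% rose and 11.9% fell. NDRG1, a gene induced by hypoxia and by differentiation, had 30.8, 31.1, 26.1 and 29.8 FPKM at 6 weeks, against 12.6, 15.4, 14.1 and 17.9 at 2 weeks, without overlap (log2 change 0.94, SE 0.11, adjusted p = 5.06e-06). PFKFB3, which makes an activator of glycolysis, averaged 20 ± 1.98 FPKM at 6 weeks and 11.7 ± 2.72 at 2 weeks (log2 change 0.75, SE 0.15, adjusted p = 0.00118), and the mitophagy receptor BNIP3 13.7 ± 1.96 FPKM at 6 weeks and 7.8 ± 0.318 at 2 weeks (log2 change 0.73, SE 0.13, adjusted p = 0.000399). The enzyme GAPDH fell, with 223 FPKM at 6 weeks and 329 at 2 weeks (-0.56, adjusted p = 0.00161). PDK4, a kinase that limits entry of pyruvate into mitochondria and is a target of FOXO factors, had 5.78, 4.25, 10.1 and 6.65 FPKM at 6 weeks, against 16.7, 17.8, 15.1 and 17.5 at 2 weeks (log2 change -1.26, SE 0.16, adjusted p = 1.25e-05). Of 23 lysosome and autophagy genes 4 rose and 1 fell, GLA, which lost its call without 2 weeks replicate 1 or 6 weeks replicate 4. The autophagosome proteins GABARAPL1 and MAP1LC3B rose by 0.58 and 0.41 (adjusted p = 9.91e-05 and 0.00111).

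Of 9 genes of the mesenchymal state 2 rose and 3 fell (against 8.43% and 11.9% of all genes tested), so the list did not move one way. Fibronectin (FN1) averaged 3.97 ± 0.427 FPKM at 6 weeks and 1.37 ± 0.487 at 2 weeks, without overlap (log2 change 1.09, SE 0.23, adjusted p = 0.0018). Vimentin (VIM) had 1.64, 1.68, 1.87 and 3.6 FPKM at 6 weeks, with replicate 4 far above the others, against 0.797, 0.811, 1.05 and 0.644 at 2 weeks (log2 change 0.77, SE 0.20, adjusted p = 0.0107). N-cadherin (CDH2) fell (2.84 ± 0.552 FPKM at 6 weeks and 4.96 ± 0.297 at 2 weeks; log2 change -0.64, SE 0.11, adjusted p = 0.000245). Of 20 genes of complement and the acute phase 6 could be tested, of which 3 rose and 0 fell, although 1 fell without 2 weeks replicate 4. The rises were in inhibitors of complement on the cell surface. CD55 averaged 46 ± 11.2 FPKM at 6 weeks and 23.2 ± 1.94 at 2 weeks (log2 change 0.93, SE 0.19, adjusted p = 0.00149), CD59 6.2 ± 0.859 FPKM at 6 weeks and 3.87 ± 0.405 at 2 weeks (log2 change 0.56, SE 0.11, adjusted p = 0.00135) and CD46 61.4 ± 5.13 FPKM at 6 weeks and 42.2 ± 1.45 at 2 weeks (log2 change 0.53, SE 0.09, adjusted p = 0.000231). CFD (-0.65, adjusted p = 0.111), SERPINA1 (-0.08, adjusted p = 0.716) and C4BPB (0.04, adjusted p = 0.897) did not pass. In the BCL2 family, 2 of 13 rose and 1 fell (against 8.43% and 11.9% of all genes tested). Of the rises, BCL2, which blocks apoptosis, averaged 3.69 ± 0.431 FPKM at 6 weeks and 2.01 ± 0.478 at 2 weeks (log2 change 0.65, SE 0.14, adjusted p = 0.00215), and BMF, which promotes it, 80.9 ± 4.99 FPKM at 6 weeks and 54.6 ± 7.43 at 2 weeks (log2 change 0.57, SE 0.15, adjusted p = 0.013). BAD, which promotes apoptosis, fell to 17.2 ± 1.9 FPKM at 6 weeks, against 24.7 ± 3.51 at 2 weeks (log2 change -0.49, SE 0.14, adjusted p = 0.0182). BAD lost its call without 2 weeks replicate 1, and 2 members fell without 2 weeks replicate 3 or 4.

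Several lists held few calls, where 8.43% of all genes tested rose and 11.9% fell. Of basal and squamous keratinocyte genes limma called 0 of 10 (0 at an unadjusted p under 0.05, and 0 by limma voom). Of S100 proteins, small calcium-binding proteins, limma called 0 of 12 (3 at an unadjusted p under 0.05, 0 by limma voom, and 1 rise without 2 weeks replicate 1). Simple epithelial keratins and junctions had 1 rise and 1 fall among 17. The rise, in the tight junction protein OCLN, was lost without 2 weeks replicate 1 or 2 or 6 weeks replicate 3. The count of rises was 0 without 2 weeks replicate 1 or 2 and 2 without 2 weeks replicate 4 or 6 weeks replicate 1. The fall, in the claudin CLDN3, was lost without 2 weeks replicate 1 or 2 or 6 weeks replicate 4. In oxidative phosphorylation 3 of 23 fell and 0 rose, with 5 falls without 2 weeks replicate 4, 6 without 6 weeks replicate 3 and 1 without 6 weeks replicate 4. In the unfolded protein and heat shock list 3 of 16 fell and 0 rose, with 1 fall without 2 weeks replicate 2 or 6 weeks replicate 1, 2 or 4. The NF-kB list had 2 rises and 1 fall among 15, where ICAM1, an adhesion molecule, rose (0.80, adjusted p = 0.0116) and the chemokine CXCL1 fell (-0.83, adjusted p = 0.00117). The p53 list had 2 rises and 1 fall among 16, with BTG2, an antiproliferative gene, higher (0.67, adjusted p = 0.00539) and MDM2, which degrades p53, lower (-0.39, adjusted p = 0.0087). The interferon list had 3 rises and 1 fall among 20, with 1 rise without 2 weeks replicate 1 or 2 or 6 weeks replicate 2 or 3, and 0 falls without 2 weeks replicate 1 or 2 or 6 weeks replicate 2 or 4. The amino acid stress list had 2 rises and 2 falls among 16. It had 1 rise without 2 weeks replicate 1, 2 or 3 or 6 weeks replicate 1 or 4, 0 without 2 weeks replicate 4, and 1 fall without 2 weeks replicate 3 or 4 or 6 weeks replicate 1, 2 or 4. SLC7A5, a carrier of large neutral amino acids, fell (-0.57, adjusted p = 0.00402).

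Among the 15 largest falls and rises outside these groups, several genes have a less settled role. CROCC2, a relative of the ciliary rootlet protein, had 3.3, 2.58, 2.84 and 2.15 FPKM at 6 weeks, against 18, 17, 11.7 and 17.3 at 2 weeks (log2 change -2.18, SE 0.16, adjusted p = 1.85e-08). CCDC188 averaged 1.69 ± 0.17 FPKM at 6 weeks and 10.9 ± 1.93 at 2 weeks (log2 change -2.14, SE 0.14, adjusted p = 8.17e-09), SHISA8 1.3 ± 0.233 FPKM at 6 weeks and 9.52 ± 2.13 at 2 weeks (log2 change -2.18, SE 0.19, adjusted p = 1.53e-07) and AC007906.2 4.22 ± 1.06 FPKM at 6 weeks and 19.7 ± 3.12 at 2 weeks (adjusted p = 8.17e-09). CTXN1, a small membrane protein, averaged 31 ± 4.6 FPKM at 6 weeks and 119 ± 30.3 at 2 weeks (log2 change -1.88, SE 0.26, adjusted p = 3.69e-05). CCDC74A, which has a near-identical copy that could share its reads, changed by -1.75. The largest fall by this rule, HIST2H3D at -2.25, is also uncertain as a member of the histone H3 family with near-identical copies. Of the rises, SIK1, a kinase of the AMPK family (5.36 ± 1.39 FPKM at 6 weeks and 1.45 ± 0.0715 at 2 weeks; log2 change 1.35, adjusted p = 1.18e-05), and SIK1B (1.31, adjusted p = 0.000163) are near-identical copies, so reads could be split between them.

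By absolute level the largest gains that kept their call without any 1 library were in CEACAM6 and MBIP. CEACAM6, an adhesion molecule of epithelial surfaces, had 468, 498, 577 and 529 FPKM at 6 weeks, against 261, 242, 319.5 and 291 at 2 weeks (log2 change 0.90, SE 0.12, adjusted p = 1.98e-05). MBIP, a gene next to the lung lineage factor NKX2-1, had 289, 314, 324 and 308 FPKM at 6 weeks, against 204, 173, 219.8 and 198 at 2 weeks (log2 change 0.64, SE 0.09, adjusted p = 1.95e-05). Both sets of samples were apart. The other 3 genes with the largest gains were TPT1 and the ribosomal protein genes RPS27 and RPL21. All 3 lost their calls without 2 weeks replicate 2 or 6 weeks replicate 3 or 4. TPT1 and RPL21 lost them also without 2 weeks replicate 4, and RPL21 without 2 weeks replicate 3. The adjusted p went up to 0.104 for RPS27, 0.079 for TPT1 and 0.12 for RPL21. These 3 genes have many processed copies in the genome. Among the largest losses, next to FOXJ1, CCNO, TUBB4B and TFF3, was TAGLN2, an actin-binding protein, with 228, 202, 314 and 242 FPKM at 6 weeks, against 395, 412, 419.8 and 407 at 2 weeks (log2 change -0.74, SE 0.12, adjusted p = 0.000158).

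The same comparison in hHGF-NSG tumours, 3 at 6 weeks and 4 at 2 weeks, uses no NSG library, although the fit shares 1 estimate of spread per gene. There 421 genes rose (2.63%) and 1034 fell (6.45%). Genes that rose in both hosts numbered 293, which is 21.7% of the NSG rises and 69.6% of the hHGF-NSG rises. Those that fell in both numbered 848, 44.4% of the NSG falls and 82.0% of the hHGF-NSG falls, and 0 were called in opposite directions. Of the 3264 NSG calls 2978 had the same sign in hHGF-NSG, and the log2 changes of all genes tested correlated with r = 0.59 across genes, which are not independent replicates.

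No gene was called in limma for a difference of the change between the hosts (0 of 16029, smallest adjusted p = 0.5117). At an unadjusted p under 0.05 there were 1299, and limma voom on recovered reads called 0, with 1364 unadjusted. Without NSG 6 weeks replicate 1, hHGF-NSG 6 weeks replicate 1 or hHGF-NSG 6 weeks replicate 2 the count was 1. The clock list had 10 rises and 1 fall in hHGF-NSG too (median 1.04 in NSG and 0.81 in hHGF-NSG), and NR1D1 had 56.5, 47.6 and 26.6 FPKM at 6 weeks, against 5.2, 5.82, 4.17 and 4.79 at 2 weeks, in hHGF-NSG. The regulators of multiciliated cells had 13 falls in either host, with medians of -0.87 in NSG and -0.80 in hHGF-NSG. Mitotic genes had 22 falls in NSG and 16 in hHGF-NSG, replication genes 12 in NSG and 1 in hHGF-NSG, and mucous genes 7 in NSG and 2 in hHGF-NSG. With 1 hHGF-NSG library left out, the hHGF-NSG counts were 10 to 17 mitotic, 0 to 2 replication and 1 to 2 mucous genes, with 10 mitotic genes without 6 weeks replicate 1. These counts were not tested against each other. Over all genes tested, 11.9% fell in NSG and 6.45% in hHGF-NSG. At 6 weeks the 26 replication genes had a mean log2(FPKM + 1) of 2.17, 2.32 and 2.33 in hHGF-NSG. The NSG libraries were at 2.16 to 2.29. At 2 weeks this mean was at most 2.53 in hHGF-NSG and at least 2.59 in NSG. The 13 mucous genes were at 2.87, 2.89 and 3.23 at 6 weeks in hHGF-NSG, against 2.78 to 2.88 in NSG. The levels were not tested between hosts either. MUC5B changed by -1.46 in NSG and -0.29 in hHGF-NSG (adjusted p = 0.669). In hHGF-NSG it had 2.25, 3.16 and 9.07 FPKM at 6 weeks, against 5.74, 4.93, 3.57 and 7.49 at 2 weeks, and the change was -0.77 without 6 weeks replicate 3 (adjusted p = 0.0559) and 0.05 without 6 weeks replicate 1. MYBL2 changed by -1.17 in NSG and -0.37 in hHGF-NSG (adjusted p = 0.218) and TK1 by -0.90 in NSG and -0.09 in hHGF-NSG (adjusted p = 0.821). With 1 hHGF-NSG library left out, the hHGF-NSG change was -0.52 to -0.15 for MYBL2 and -0.21 to 0.05 for TK1. EGR1 changed by 2.26 in NSG and 0.67 in hHGF-NSG, where it was not called (adjusted p = 0.581; 0.40 to 1.01 with 1 library left out).

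**Figure D5:**
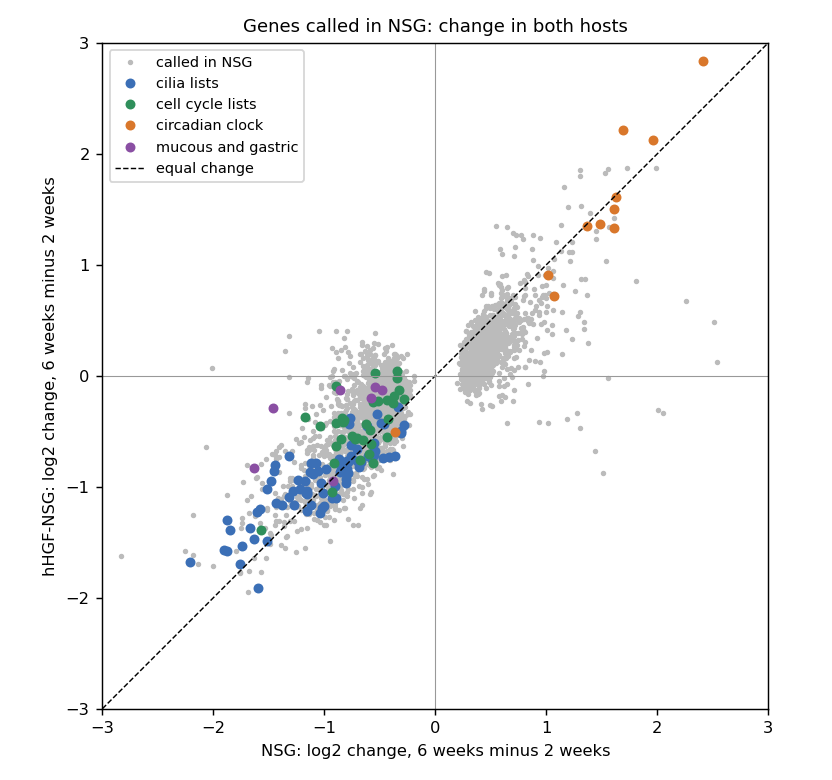
Log2 change from 2 to 6 weeks (6 weeks minus 2 weeks) in NSG on the horizontal axis and in hHGF-NSG on the vertical axis, for the 3264 genes called in NSG; coloured points are members of the cilia, cell cycle, clock and mucous lists and the dashed line marks equal change. NR1D1 lies at 2.41 in NSG and 2.84 in hHGF-NSG, and MUC5B lies at -1.46 in NSG and -0.29 in hHGF-NSG (-0.77 without hHGF-NSG 6 weeks replicate 3).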

How the data were processed

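Bulk RNA sequencing of H3122 xenograft tumours was deposited as FPKM values per gene, in 1 table of human and 1 of mouse genes, with a column per sample. Per the labels' protocols, total RNA was isolated with TRIzol and libraries followed Novogene's guidelines. The submitters' processing notes name hg38 (GRCh38), mm10 and DESeq2, without its role. For the aligner, counter and annotation: not given in the sources used here.

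Deposited FPKM values times gene length were whole multiples of 1 step for 100% of human values (tolerance 0.05 of a read), which gave recovered reads for depth, the mouse share and limma voom. The library size in the FPKM values was not the total of recovered reads. It was 12884966 against 11852085 reads in NSG 2 weeks replicate 1, and 13685397 against 14821038 in NSG naive replicate 1. How it was set is not given in the sources used here. FPKM remains a relative level within a library. Libraries of a group differed by more than counting error (chi-square per degree of freedom of 4.29 or more between replicates), and no 2 were merged. Intervals and floors (3 reads) cover counting error only.

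Samples were grouped by their labels. limma 3.58.1 in R 4.3.3 (trend, empirical Bayes) was run on log2(FPKM + 1) over all 22 samples and 6 group means, for genes at 1 FPKM or more in at least 3 samples, with Benjamini-Hochberg adjustment over 16029 genes and a threshold of 0.05. Adjusted p-values in the text are from this fit. The fit was tested on simulated data. Named genes were ALK, EML4, MET and HGF, the 15 largest changes per direction (called, no overlap, 5 FPKM or more in the higher group), up to 3 called members per list, and the 5 largest changes in FPKM per direction, which made 145 protein-coding genes. Other list members were named after their values were seen. The members and lists were chosen with earlier results of these data known, and 8 list symbols were matched through their older names. Alternatives were a pseudocount of 0.1, no filter, median-ratio scaling, a replicate block, a fit on the 8 libraries, limma voom, and leaving out each library; list counts without NSG 6 weeks replicate 3, and hHGF-NSG changes without each hHGF-NSG library, were added after seeing the data. Promoter windows are from RefSeq GRCh38.p14, and gene positions from the deposited table. Values of some single genes are not reported here.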

Additional observations from a re-analysis of the deposited data

Results flagged for a closer look

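Groups of 4 samples were screened on the log2(FPKM + 1) scale, while the levels given below are in FPKM. A library was picked out where its gap to the nearest other, as a share of the group's range, passed Dixon's critical value. This held for 14 of 288 groups (a named gene at 1 time), and chance picks about 1 in 20. NSG 6 weeks replicate 3 was picked 4 times, for HES6 (76.6 FPKM, others 63.0 to 64.4, share 0.885), NQO1 (12.8, others 9.28 to 9.59, share 0.899), MDM2 (12.2, others 10.3 to 10.6, share 0.83) and BAD (20.03, others 15.9 to 16.5, share 0.841), each time as the highest. NSG 6 weeks replicate 4 was the highest for MET (15.03, others 10.9 to 11.5, share 0.846), MUC5B (3.20, others 2.21 to 2.32, share 0.876) and VIM (3.60, others 1.64 to 1.87, share 0.848). NSG 6 weeks replicate 2 was the highest for CDH2 (3.67, others 2.54 to 2.58, share 0.962), and replicate 1 the lowest for MYBL2 (0.707, others 1.25 to 1.34, share 0.873). NSG 2 weeks replicate 1 was the lowest for SP5 (0.791, others 2.10 to 2.25, share 0.922) and ALDH1A3 (1.87, others 2.49 to 2.60, share 0.861) and the highest for XBP1 (287.7, others 265 to 268, share 0.871). NSG 2 weeks replicate 3 was the lowest for CROCC2 (11.7, others 17.0 to 18.0, share 0.862), and replicate 2 the highest for TUBB4B (484, others 416 to 426, share 0.839). Of these genes MET was not called, BAD lost its call without 2 weeks replicate 1, SP5 lost its call without any of 6 libraries (2 weeks replicates 2, 3 and 4 and 6 weeks replicates 2, 3 and 4), and the others kept their calls without any 1 library.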

How the results depend on the processing

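The count of genes called, 3264, became 3122 with a pseudocount of 0.1, 2732 with no filter, 3301 with median-ratio scaling, 2427 in the fit on the 8 libraries, 3359 with limma voom (3061 shared) and 2322 to 3068 with a library left out (913 to 1259 higher, 1407 to 1855 lower), and 1818 genes were called under every left-out library. Replicate numbers did not pair the samples: deviations of same-numbered libraries correlated at -0.13, 0.03, 0.10 and 0.03, and with a replicate block 2538 genes were called. The host difference, 0 genes, became 2 with no filter and 0 to 1 with a library left out, and the cause was not tested. The median-ratio factors of the 8 NSG libraries compared were 0.994 to 1.012. That scaling thus barely changed the values, and it tests little about normalization. The mouse share difference of 3.43 points was 2.07 to 4.93 with a library left out. Of 136 named genes called, 108 kept the call under every alternative and 28 lost it under at least 1; 18 lost it with no filter, 15 in the fit on the 8 libraries, 13 with the block, 2 with a pseudocount of 0.1, and 7 to 17 with a library left out. COL1A1, a fibroblast marker that was not called (log2 change 0.03), ranged from -0.135 to 0.303 with a library left out, with -0.015 and -0.041 without 2 weeks replicate 3 and 4 and -0.024, -0.041 and -0.135 without 6 weeks replicate 1, 2 and 4; the cause was not tested. In hHGF-NSG, with a library left out, MUC5B ranged from -0.772 to 0.045, and TK1 from -0.207 to 0.052, with 0.017 without 2 weeks replicate 4; neither was called. Without 6 weeks replicate 3, an alternative chosen after seeing the data, the cilia lists had 13, 21, 35 and 16 falls, the clock 10 rises, and the cell cycle lists 14 and 23 falls. Levels near 1 FPKM and below rest on few reads, and the log2(FPKM + 1) scale understates their changes.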

Other observations

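Some gene families, picked by their symbols after their values were seen, add to the groups above. Over all genes tested 8.43% rose and 11.9% fell. Of 32 kinesins tested, motors that walk along microtubules, 15 fell and 1 rose (median -0.26). The rise, KIF13A, lost its call without 2 weeks replicate 1 or 3 or 6 weeks replicate 1 or 2. The falls hold mitotic kinesins, such as KIF20A (-0.83, adjusted p = 0.000162), and KIF19, a kinesin that sets cilium length in mice (-1.18, adjusted p = 3.4e-07). Of 92 genes with CCDC names, a family defined only by a coiled coil, 38 fell and 3 rose. Of 8 NME genes 5 fell and 0 rose; NME5, found in radial spokes, averaged 1.19 ± 0.22 FPKM at 6 weeks and 2.85 ± 0.69 at 2 weeks (log2 change -0.80, SE 0.14, adjusted p = 0.000333). Of 11 SOX factors 4 fell and 0 rose, and SOX2, a factor of airway identity, averaged 48.2 ± 5.61 FPKM at 6 weeks and 71.5 ± 4.65 at 2 weeks (log2 change -0.56, SE 0.11, adjusted p = 0.000952). Of 12 KLF factors, zinc finger proteins of epithelial differentiation and quiescence, 5 rose and 0 fell, with KLF7 at 8.6 ± 1.74 FPKM at 6 weeks and 5.05 ± 1.25 at 2 weeks (log2 change 0.67, SE 0.14, adjusted p = 0.00158). KLF6 and KLF10 lost their calls without 2 weeks replicate 1 or 3 or 6 weeks replicate 4, KLF6 also without 6 weeks replicate 2 and KLF10 without 6 weeks replicate 1. E2F7, a repressor among the E2F factors, had 2.26, 2.9, 3.06 and 3.45 FPKM at 6 weeks, against 8.22, 9.14, 7.92 and 10.6 at 2 weeks, without overlap (log2 change -1.35, SE 0.13, adjusted p = 5.32e-07).

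Of 25 histone genes tested 8 fell and 0 rose (median -0.28), against 11.9% and 8.43% of all genes tested. Near-identical copies could share the reads of these histone genes. The 13 genes of the mitochondrial genome had a median log2 change of 0.58, and limma called 0 of them, with 3 at an unadjusted p under 0.05 and 2 called by limma voom.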
